A study of Mus musculus with 6 samples.

Results

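The genes described here are 36 genes of glucose breakdown and of the response to low oxygen, measured by RNA-seq in neurospheres from the adult mouse brain. They were chosen by symbol, by their roles and not by a threshold on their values, though with earlier results of these data known, and all 36 were found by Ensembl identifier among the 49671 genes of the count table. By role they were 3 transporters of glucose and lactate, 14 glycolytic enzymes, 3 enzymes that switch glycolytic flux, 5 subunits or prolyl hydroxylases of the hypoxia-inducible factor (HIF), and 11 other genes that low oxygen induces.

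Glycolysis splits glucose into pyruvate in the cytosol, and lactate dehydrogenase turns pyruvate into lactate when it is not passed on to the mitochondria. HIF is a pair of proteins, an oxygen-sensitive alpha subunit and the stable partner ARNT. With enough oxygen the prolyl hydroxylases mark the alpha subunit for destruction. Without it HIF binds short motifs near its target genes, among them the letters ACGTG. Many of these targets encode glycolytic enzymes and glucose transporters. Neural stem and progenitor cells are known for strong use of glycolysis, which declines as they turn into neurons.

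The study asked what loss of the dioxygenase TET3, which oxidises methylated cytosine, does to neural stem cells of the subventricular zone, a stem cell niche of the adult brain. Of the 6 libraries, 3 were labelled Tet3-Gfap cre and 3 Tet3-Gfap control. Both groups were Tet3 loxp/loxp, with loxP sites around exon 5 of *Tet3*, on a C57BL6 background; the Tet3-Gfap cre mice also carried 1 copy of a Cre recombinase transgene driven by the *Gfap* promoter (Gfap-cre +/0), and the Tet3-Gfap control mice carried none (Gfap-cre 0/0). Mice were 2 to 4 months old, each culture was started from the subventricular zone of 2 animals, and the cells were grown as floating spheres with EGF and FGF. Cre acts in cells that use the *Gfap* promoter or descend from them, so cells without that history kept *Tet3*, and the reads of the exons that remain still count for the gene. The study describes repeated culture experiments and triplicate RNA-seq samples, but the labels do not say which culture each library came from, so the p-values below measure the spread between these libraries, which may be technical in part. In such bulk samples fewer cells of a type and less RNA per cell cannot be told apart.

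The targeted gene went against 2 labels. *Tet3* stood at 61.3, 60.5 and 116 CPM (counts relative to the library total after TMM scaling) in the libraries labelled cre 1, cre 2 and cre 3, and at 114, 136 and 60.3 CPM in control 1, control 2 and control 3. The libraries labelled cre 3 and control 3 thus each had the *Tet3* level of the other label. *Gfap* was at 3.84, 3.52 and 0.28 CPM in cre 1, cre 2 and cre 3, and at 0.503, 0.327 and 6.62 CPM in control 1, control 2 and control 3. The Cre transgene carries *Gfap* exons, so its reads and those of the gene itself cannot be told apart. Each comparison is therefore given by the labels, with 3 cre against 3 control libraries, and again in the 4 libraries labelled cre 1, cre 2, control 1 and control 2.

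Libraries held between 29660398 and 35405326 counts each. All 10 neural stem and progenitor markers passed the filter on low counts, with a summed level of 9023 to 9871 CPM in cre and 10271 to 10462 CPM in control libraries. All 6 microglial markers stayed under 1 CPM in every library, with sums of 0.311 to 1.497 CPM in cre and 0.207 to 0.743 CPM in control libraries, and 5 of 6 endothelial and pericyte markers did so too. The 6 astrocyte markers summed to 472 to 781 CPM in cre and 724 to 784 CPM in control libraries, the 6 neuronal markers to 1058 to 1277 and 1056 to 1415 CPM, the 6 oligodendrocyte markers to 74.8 to 91.4 and 59.996 to 88.9 CPM, the 5 ependymal markers to 21.1 to 23.4 and 15.5 to 18.5 CPM, and the 8 proliferation markers to 2226 to 2442 and 2355 to 2421 CPM. By the labels edgeR called none of these markers and DESeq2 *Slc1a2*, an astrocyte glutamate transporter, higher in cre (adjusted p 0.0499). DESeq2 gave *Gfap* no p-value by the labels. In the 4 libraries *Gfap* was the 1 marker called by edgeR, and DESeq2 called *Gfap*, the progenitor marker *Prom1* (log2 difference 1.20, adjusted p 0.00205) and the oligodendrocyte marker *Cnp* (0.44, adjusted p 0.0493), all higher in cre. Single genes made up most of 3 of the sums: *Map2* of the neuronal one, at 992 to 1381 CPM, *Cnp* of the oligodendrocyte one, at 54.7 to 85.3 CPM, and *Foxj1* of the ependymal one, at 14.6 to 22.8 CPM. Under 1 CPM in every library were 3 of the 6 oligodendrocyte and 4 of the 5 ependymal markers. Skeletal muscle genes stood apart in cre 1, with *Acta1* at 34.6 CPM there and 0.715 to 1.00 CPM elsewhere, a set noticed after the values were seen.

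The 36 genes spanned more than 4 orders of magnitude per kilobase of exon, and enzymes of lower glycolysis led. *Pkm*, which makes pyruvate, had a mean of 303 CPM per kb over the 6 libraries. *Pgam1*, the phosphoglycerate mutase, and *Pgk1*, the phosphoglycerate kinase, followed with 259 and 250 CPM per kb. *Aldoa*, *Ldhb*, *Ldha* and *Tpi1* came next, with 177, 155, 111 and 85.0 CPM per kb. The ranges over libraries of *Pgam1*, 241 to 275 CPM per kb, and of *Pgk1*, 242 to 267 CPM per kb, overlapped, so in their own rows these neighbours did not differ beyond their spread. This order holds for the rows of the genes alone: with the counts of near-identical annotated copies added, *Gapdh* at 402 to 465 and *Pgk1* at 407 to 453 CPM per kb came first, *Pkm* next at 331 to 403 and *Pgam1* after it at 256 to 292 CPM per kb. On that scale the ranges of *Pgk1* and *Pgam1* did not overlap, while those of *Gapdh* and *Pkm* did. Lengths here are all annotated exon bases of a gene, 4133 for *Gapdh* and 5001 for *Pkm*. Their longest coding transcripts have 1420 and 2432 bases, so the order of the genes and these overlaps depend on the length used.

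**Figure D1:**
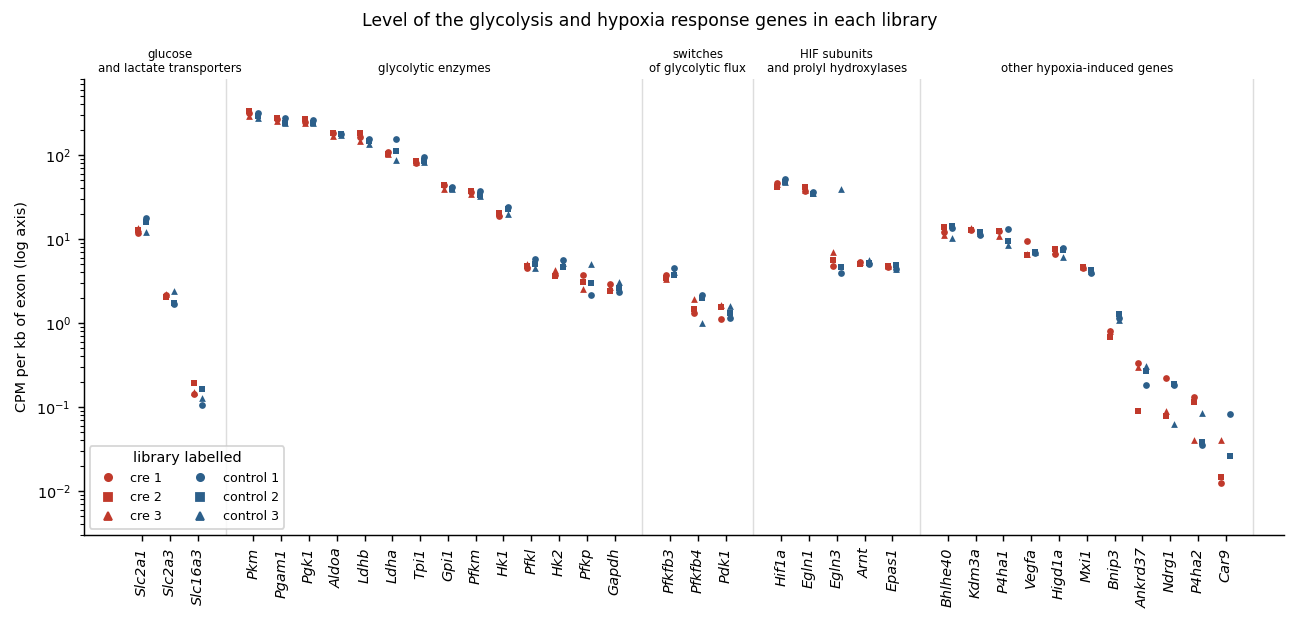
Level of each of the 36 genes in each library, in CPM per kb of exon on a log axis, grouped by role and ordered by mean level within a role. Red marks are the libraries labelled cre, left of the blue marks for those labelled control; marker shapes give the replicate number, and the library with 0 counts for *Car9* (control 3) is not drawn. Levels run from *Pkm* at 272 to 332 CPM per kb down to *Car9* at no more than 0.0818 CPM per kb, and *Egln3* in control 3 lies far above its other 5 values.

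At the low end were some of the genes that low oxygen induces. *Car9*, a carbonic anhydrase of the cell surface, had 1, 1 and 3 counts in cre 1, cre 2 and cre 3, and 6, 2 and 0 counts in control 1, control 2 and control 3, and was the 1 gene of the 36 that did not pass the filter on low counts. *Ankrd37*, an ankyrin repeat protein, had 4 to 18 counts per library. *P4ha2*, an enzyme that hydroxylates collagen, had 7 to 29, *Slc16a3*, a transporter that exports lactate, 18 to 30, and *Ndrg1*, a stress-induced protein of the cytosol, 14 to 51 counts. *Bnip3*, a protein of the outer mitochondrial membrane that promotes mitophagy, had 45 to 98 counts in its own row. That row held only 35.4 to 47.8% of the reads of *Bnip3* and its near-identical copies. Other genes that low oxygen induces were more plentiful: *Vegfa*, the vascular growth factor, had a mean of 7.20 CPM per kb and *Kdm3a*, a histone demethylase, 12.4 CPM per kb. *Bhlhe40*, *P4ha1*, *Higd1a* and *Mxi1* had means of 12.5, 11.2, 7.10 and 4.36 CPM per kb.

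Per kb of annotated exon, the same form led within gene pairs and trios in every library, with 2 exceptions. *Hk1*, the housekeeping hexokinase that phosphorylates glucose, made up 82.6 to 84.9% of the summed per-kb level of *Hk1* and *Hk2* in cre libraries and 79.1 to 82.9% in control libraries. *Pfkm* made up 81.4 to 82.8% of the 3 phosphofructokinases in cre and 77.3 to 82.3% in control libraries. The annotated exon bases are 13401 for *Pfkp*, 6675 for *Pfkl* and 3340 for *Pfkm*. Their longest coding transcripts have 4145, 3730 and 2879 bases, so this share, like the others here, depends on the length used. *Slc2a1*, the glucose transporter GLUT1, made up 84.5 to 86.3% of the summed level with *Slc2a3*, the neuronal transporter GLUT3, in cre libraries and 83.6 to 91.3% in control libraries.

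*Hif1a* made up 89.8 to 90.9% of the summed level with *Epas1*, which encodes the other alpha subunit, in cre and 90.7 to 92.3% in control libraries. *Ldhb*, the subunit of the heart-type lactate dehydrogenase, held 58.8 to 63.7% of the summed level with *Ldha* in cre libraries. In control libraries its share was 49.9 to 61.1%, and control 1 was the 1 library in which *Ldha*, at 50.1%, was level with it. These shares divide by all annotated exon bases, 3310 for *Ldha* and 1570 for *Ldhb*. Their longest coding transcripts have 1815 and 1304 bases, so the lead of *Ldhb* depends on the length used. The second exception was *Egln3* over *Egln1* in control 3.

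The row of *Gapdh*, the enzyme after triose phosphate isomerase and a common reference gene, held very few counts. The gene (GRCm38, chr6:125161715-125166467, minus strand) had 423, 289 and 356 counts in cre 1, cre 2 and cre 3, and 306, 361 and 433 counts in control 1, control 2 and control 3. Its level of 2.66 CPM per kb was below that of *Pfkl*, a phosphofructokinase, at 4.93 CPM per kb. Annotated elsewhere in the genome were 91 genes with a stretch of at least 200 bases that is at least 95% identical to a *Gapdh* transcript, and 89 of them had counts. Together these copies held 58332, 51062 and 54016 counts in cre 1, cre 2 and cre 3, and 60914, 61741 and 61231 counts in control 1, control 2 and control 3. The *Gapdh* row thus held 0.563 to 0.720% of the reads of the gene and its copies in cre libraries and 0.4998 to 0.702% in control libraries.

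Of the 91 copies, 24 had more counts than *Gapdh* over the 6 libraries, and 25 were at least 99% identical to it. The highest, *Gm7336* on chromosome 7, is a processed pseudogene that is 99.8% identical over 1232 bases. It had 10646, 9154 and 9403 counts in cre 1, cre 2 and cre 3, and 10848, 10714 and 10649 counts in control 1, control 2 and control 3. Of the 50-base windows of the *Gapdh* transcript, 82.5% occur letter for letter in another annotated gene. The stretch below is shown because it is the 60 coding bases in which *Gapdh* and its 3 most counted copies differ most, and they differ there at 1 base, in capitals. It covers coding bases 302 to 361 and was read from the transcripts of GENCODE M21 (GRCm38), 5′ to 3′, on the transcribed strand.
Gapdh, chromosome 6: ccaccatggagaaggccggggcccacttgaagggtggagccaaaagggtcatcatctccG
Gm7336, chromosome 7: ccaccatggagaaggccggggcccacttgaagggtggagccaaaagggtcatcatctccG
Gm2606, chromosome 15: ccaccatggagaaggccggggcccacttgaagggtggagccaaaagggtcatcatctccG
Gm12070, chromosome 11: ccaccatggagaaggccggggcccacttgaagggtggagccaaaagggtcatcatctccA

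With the counts of its copies added, *Gapdh* stood at 1660, 1753 and 1690 CPM in cre 1, cre 2 and cre 3, and at 1923, 1845 and 1821 CPM in control 1, control 2 and control 3. On this scale all 3 cre libraries lay below all 3 control libraries, whereas in the row of the gene itself the labels overlapped, with 11.95, 9.86 and 11.1 CPM in cre and 9.61, 10.7 and 12.8 CPM in control libraries. The log2 difference with copies was −0.13 by the labels and −0.14 in the 4 libraries, and it did not pass edgeR's quasi-likelihood test (adjusted p 1.00 and 0.552). Without copies it was −0.01 by the labels and 0.10 in the 4 libraries.

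Copies took a smaller part of 10 other members. *Higd1a*, a mitochondrial protein induced by hypoxia, held 39.0 to 42.2% of the reads of itself and its copy *Gm9790* in cre libraries and 38.7 to 43.7% in control libraries. *Bnip3* held 35.4 to 41.3% in cre and 44.9 to 47.8% in control libraries, the rest being in *Gm16439* and *Gm9419*. *Pgk1* held 57.3 to 58.8% in cre and 57.9 to 59.4% in control libraries, and its copies *Pgk1-rs7* and *Gm5537* are identical to it over 1255 and 1252 bases.

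*Gpi1*, the glucose-6-phosphate isomerase, held 60.2 to 61.5% in cre and 60.2 to 62.4% in control libraries. *Pkm* and *Ldhb* held between 81.6 and 85.1% in all 6 libraries, and *Tpi1*, *Pgam1*, *Ldha* and *Aldoa* over 92%. How the authors' counting treated reads with several equal matches is not stated, so the levels of these 11 genes are uncertain. Exons of another gene cover 22.3% of the exon bases of *Bnip3*, 22.5% of *Higd1a*, 26.4% of *Ankrd37* and 11.5% of *Gpi1* on the opposite strand, and 15.3% of *Pkm* and 10.2% of *Pfkm* on the same strand. The use of strand in counting is not stated either.

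**Figure D2:**
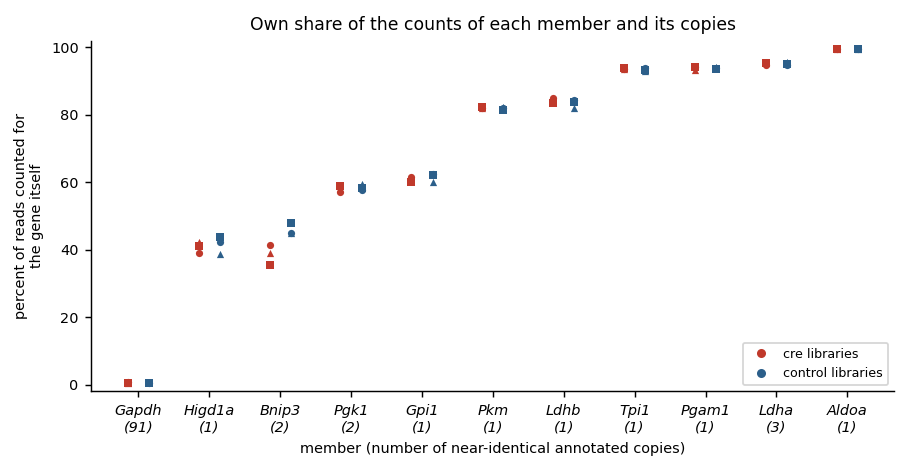
Percent of counts held by the gene itself, of the counts of the gene and its near-identical annotated copies together, for the 11 genes with such copies. Each mark is a library, red for those labelled cre and left of blue for control; the number of copies stands in parentheses. *Gapdh* lies under 1% in all 6 libraries, *Higd1a* and *Bnip3* between 35.4 and 47.8%, and *Aldoa* above 99%.

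By the labels, none of the 36 genes passed the test. With edgeR's quasi-likelihood test after Benjamini-Hochberg adjustment over 16916 genes, 0 of the 35 members tested were called, and over all genes 0 were called too (0%). At an unadjusted p under 0.05, 2 members were higher in cre (*Egln1* and *Mxi1*) and 3 lower (*Hk2*, *Pfkfb3* and *Bnip3*), against 2.66% of all genes tested that were higher and 2.34% that were lower. DESeq2 called 0 members as well, and 67 genes in all (0.215% of genes higher and 0.145% lower in cre). It gave no p-value for *Egln3* and no adjusted p for *Car9*, so these members were not judged by it. Without a filter on low counts edgeR called 0 members, and 0.00346% of all genes higher and 0.00693% lower in cre.

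Of the members, 3 had all cre libraries above all control libraries (*Egln1*, *Kdm3a* and *Mxi1*) and 4 had them all below (*Hk2*, *Pfkfb3*, *Hif1a* and *Bnip3*). Over all genes tested these patterns held for 4.81 and 4.66%. The median log2 difference between cre and control was 0.01 over the 35 members and −0.00 over all genes tested, with 18 members above 0 and 17 below.

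In the 4 libraries 0 of 35 members were called by edgeR's quasi-likelihood test, where 0.212% of all 17003 genes tested were higher in cre and 0.247% lower. At an unadjusted p under 0.05, 3 members were higher in cre (*Slc2a3*, *Pfkp* and *P4ha2*), against 6.12% of all genes, and 5 were lower (*Slc2a1*, *Hk1*, *Hk2*, *Pfkfb4* and *Bnip3*), against 5.12%. The median log2 difference of the members was 0.04. DESeq2 called 1 member in these libraries, *Slc2a1*, lower in cre, where it called 1.39% of all genes lower and 1.53% higher. It gave no adjusted p for *Ankrd37*, *Car9* and *P4ha2* there. Without a filter on low counts edgeR called 5 members, *Slc2a1*, *Hk2*, *Ldha* and *Pfkfb4* lower and *Pfkp* higher in cre, where it called 1.96% of all genes lower and 2.81% higher.

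**Figure D3:**
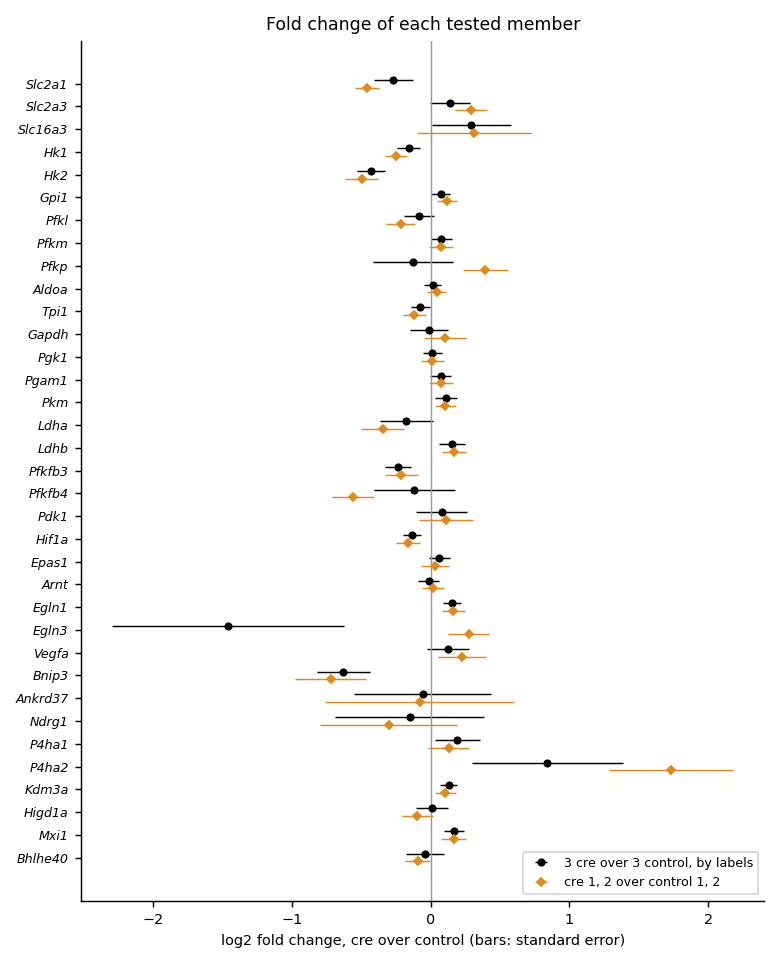
Log2 fold change of cre over control for each of the 35 genes tested, with its standard error, by the labels (black circles, 3 against 3 libraries) and in the 4 libraries cre 1, cre 2, control 1 and control 2 (orange diamonds). Most values lie within 0.5 of 0; *Egln3* is at −1.46 by the labels and 0.27 in the 4 libraries, and *P4ha2* at 0.84 and 1.73.

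Among the transporters, *Slc2a1* (GRCm38, chr4:119108711-119137983, plus strand) stood at 41.5, 44.9 and 47.5 CPM in cre 1, cre 2 and cre 3, and at 62.5, 56.2 and 42.4 CPM in control 1, control 2 and control 3. Control 1 and control 2 lay above all cre libraries, and control 3 lay among them. On the log2 scale cre minus control was −0.27 ± 0.14 (SE) by the labels and −0.46 ± 0.09 in the 4 libraries. By the labels it was −0.14 without control 1 and −0.41 without control 3. The adjusted p in the 4 libraries was 0.105 with edgeR's quasi-likelihood test and 0.0129 with DESeq2.

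*Slc2a3* had the other order, with 15.8, 14.8 and 15.9 CPM in cre 1, cre 2 and cre 3, and 12.3, 12.7 and 17.2 CPM in control 1, control 2 and control 3. Control 1 and control 2 lay below all cre libraries and control 3 above them. Its log2 difference was 0.14 ± 0.14 by the labels and 0.29 ± 0.12 in the 4 libraries. *Slc16a3* ranged from 0.763 to 1.02 CPM in cre and from 0.565 to 0.862 CPM in control libraries, and the labels overlapped.

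Among the enzymes, *Hk2* (GRCm38, chr6:82725025-82774454, minus strand), the inducible hexokinase bound to mitochondria, had the lowest unadjusted p of the 35 members by the labels. It stood at 22.4, 21.4 and 25.4 CPM in cre 1, cre 2 and cre 3, and at 33.7, 28.0 and 31.3 CPM in control 1, control 2 and control 3. All cre libraries lay below all control libraries, the nearest being cre 3 and control 2. Its log2 difference was −0.43 ± 0.10 by the labels and −0.50 ± 0.12 in the 4 libraries, with adjusted p of 0.707 and 0.163 in edgeR's quasi-likelihood test. *Hk1* stood at 162, 172 and 173 CPM in cre 1, cre 2 and cre 3, and at 202, 194 and 169 CPM in control 1, control 2 and control 3, so that control 3 lay among the cre libraries.

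*Ldha*, the lactate dehydrogenase subunit of muscle and tumours, varied mostly between the control libraries. It stood at 357, 340 and 340 CPM in cre 1, cre 2 and cre 3, and at 518, 366 and 285 CPM in control 1, control 2 and control 3. The cre libraries lay between control 2 and control 3. The log2 difference of −0.17 ± 0.19 by the labels was 0.09 without control 1.

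*Pfkp*, the platelet-type phosphofructokinase, stood at 49.6, 41.5 and 33.6 CPM in cre 1, cre 2 and cre 3, and at 29.2, 40.0 and 66.7 CPM in control 1, control 2 and control 3. Control 3 was the highest library and control 1 the lowest, so both labels spanned much of the range. By the labels the log2 difference was −0.13 ± 0.29, and in the 4 libraries 0.39 ± 0.16. The other phosphofructokinases overlapped between labels, with *Pfkl* at 30.005 to 34.0 CPM in cre and 29.9 to 38.4 CPM in control, and *Pfkm* at 114 to 126 CPM in cre and 108 to 123 CPM in control libraries.

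Apart from *Ldha*, the enzymes with a mean above 200 CPM varied little between libraries. *Pkm* averaged 1575 ± 94.1 CPM in cre and 1459 ± 103 CPM in control libraries (SD, n = 3 each). *Aldoa*, the aldolase, averaged 518 ± 22.9 and 513 ± 4.30 CPM, *Pgk1* 563 ± 30.04 and 559 ± 25.5 CPM, and *Pgam1* 526 ± 21.0 and 500 ± 38.7 CPM in cre and control libraries. *Tpi1*, triose phosphate isomerase, averaged 228 ± 4.67 CPM in cre and 240 ± 17.2 CPM in control, *Gpi1* 272 ± 17.7 and 258 ± 5.53 CPM, and *Ldhb* 255 ± 26.9 and 230 ± 16.5 CPM. In each of these 7 genes the labels overlapped, and the highest library was at most 1.34 times the lowest.

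The switch enzymes control entry into glycolysis and exit to the mitochondria. *Pfkfb3*, which makes the activator of phosphofructokinase, stood at 27.8, 26.1 and 25.3 CPM in cre 1, cre 2 and cre 3, and at 34.4, 27.9 and 31.0 CPM in control 1, control 2 and control 3. All cre libraries lay below all control libraries, but cre 1 and control 2 nearly met. This gave a log2 difference of −0.24 ± 0.10 by the labels and −0.21 ± 0.12 in the 4 libraries (adjusted p 0.974 and 0.623, edgeR's quasi-likelihood test). Leaving out 1 of those 4 libraries gave −0.053 without control 1 and −0.36 without control 2.

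*Pfkfb4*, its relative, stood at 6.36, 7.20 and 9.29 CPM in cre 1, cre 2 and cre 3, and at 10.4, 9.60 and 4.81 CPM in control 1, control 2 and control 3. Control 3 was lowest of all 6 libraries, while control 1 and control 2 were highest. Its log2 difference was −0.12 ± 0.29 by the labels and −0.56 ± 0.15 in the 4 libraries (adjusted p 0.207, edgeR's quasi-likelihood test). *Pdk1*, the kinase that blocks pyruvate dehydrogenase, ranged from 8.56 to 12.6 CPM in cre and from 8.83 to 12.4 CPM in control libraries, nearly the same span.

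**Figure D4:**
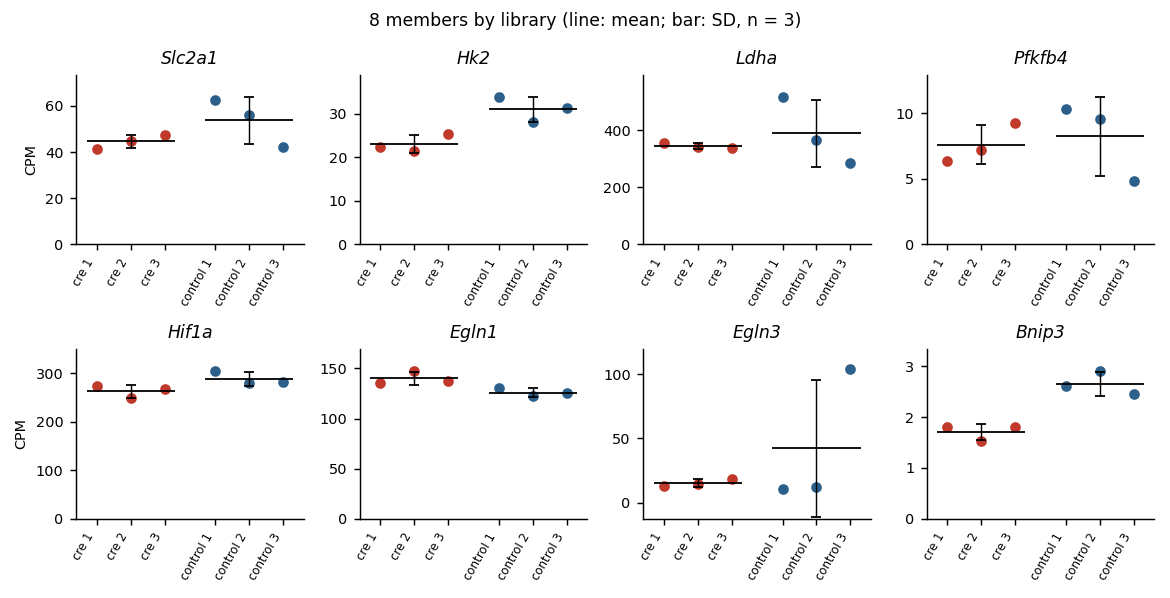
Level in CPM of 8 of the genes in each library, cre libraries in red on the left and control libraries in blue on the right, with the mean (line) and SD (bar, n = 3) of each label. *Hk2* and *Bnip3* lie lower and *Egln1* higher in all 3 cre libraries; *Slc2a1*, *Ldha* and *Pfkfb4* are lower in control 3 than in the other control libraries, and *Egln3* is at 104 CPM in control 3, against 10.3 to 18.7 CPM in the other 5 libraries.

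Of the HIF subunits, *Hif1a* (GRCm38, chr12:73901375-73947530, plus strand) stood at 273, 248 and 267 CPM in cre 1, cre 2 and cre 3, and at 304, 279 and 281 CPM in control 1, control 2 and control 3. All cre libraries lay below all control libraries, the nearest being cre 1 and control 2. The log2 difference was −0.13 ± 0.07 by the labels and −0.16 ± 0.09 in the 4 libraries, and passed the test in neither (adjusted p 1.00 and 0.574, edgeR's quasi-likelihood test). *Epas1* ranged from 25.9 to 26.8 CPM in cre and from 24.2 to 27.1 CPM in control libraries, and *Arnt* from 40.2 to 43.0 CPM in cre and from 40.4 to 45.3 CPM in control libraries.

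*Egln1*, the main oxygen-sensing prolyl hydroxylase PHD2, stood at 136, 147 and 137 CPM in cre 1, cre 2 and cre 3, and at 130, 122 and 125 CPM in control 1, control 2 and control 3. All cre libraries lay above all control libraries. The log2 difference was 0.15 ± 0.06 by the labels and 0.16 ± 0.08 in the 4 libraries (adjusted p 0.976 and 0.550, edgeR's quasi-likelihood test).

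*Egln3* (GRCm38, chr12:54178981-54203860, minus strand), the hypoxia-induced prolyl hydroxylase PHD3, was high in 1 library. It stood at 12.6, 14.8 and 18.7 CPM in cre 1, cre 2 and cre 3, and at 10.3, 12.3 and 104 CPM in control 1, control 2 and control 3. Control 3 had 5.57 times the level of the next library, cre 3, and among the other 5 libraries the 3 cre libraries lay above control 1 and control 2. Cre minus control was −1.46 ± 0.83 on the log2 scale by the labels, 0.44 without control 3, and 0.27 ± 0.15 in the 4 libraries. In control 3 *Egln3* made up 52.9% of the summed per-kb level with *Egln1*, against 9.67 and 11.95% in control 1 and control 2 and 11.2 to 15.5% in cre libraries.

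Among the 16916 genes tested, 16, *Egln3* included, had a highest library at least as far above the next one, and it was the 1 of them whose highest library was control 3. The expressed genes beside it on chromosome 12, chosen after the values were seen, did not share the pattern. *Npas3* was at 109 CPM in control 3 and 101 to 121 CPM in the other libraries, and *Sptssa* at 54.7 CPM in control 3 and 40.2 to 45.3 CPM in the other libraries. None of the other 34 members tested was over 2-fold higher in control 3 than the mean of the other 5 libraries, and *Ndrg1* was over 2-fold lower there.

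**Figure D5:**
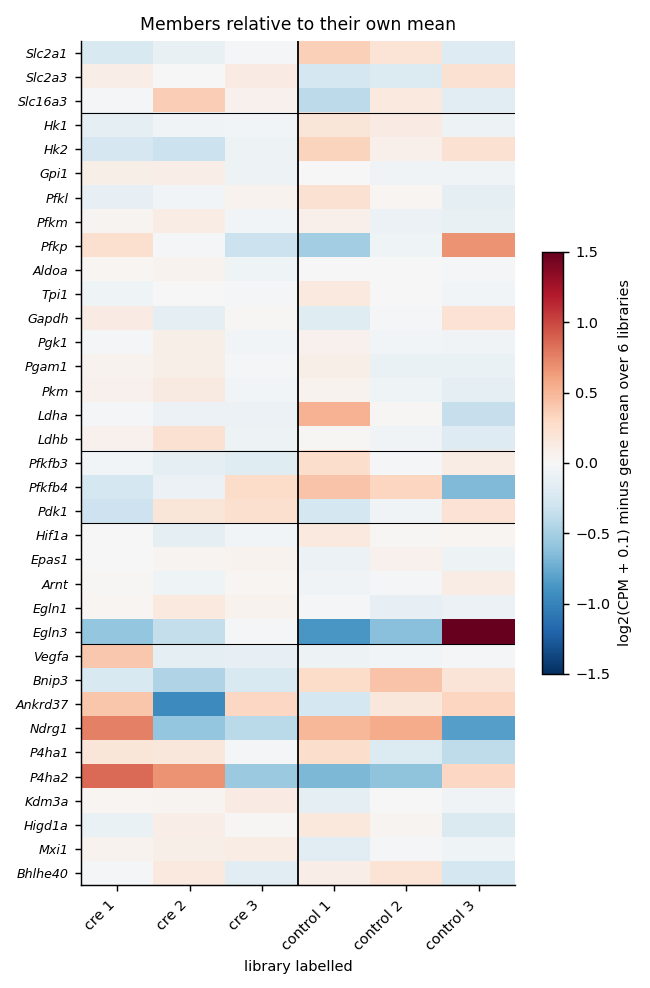
Level of each of the 35 genes tested in each library relative to its own mean, as log2(CPM + 0.1) minus the mean over 6 libraries, with cre libraries left of the vertical line and control libraries right of it. Red is above and blue below the mean of the gene, and the colours end at 1.5 in either direction, a limit that *Egln3* in control 3 exceeds. Rows of low counts such as *P4ha2*, *Ndrg1* and *Ankrd37* carry much of the remaining colour.

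The libraries differed in how often they held the extreme value of a member. Control 1 was highest in 12 of 35 members, where it was highest in 20.7% of all genes tested, and control 3 was lowest in 11 of 35, where it was lowest in 22.4% of all genes. Control 1 was also lowest in 9 members (21% of all genes), and control 3 highest in 5 (22.5% of all genes). Against the mean of the other 5 libraries, the median log2 ratio of the members was between −0.07 in control 3 and 0.06 in control 1, and between 28 and 32 of the 35 members lay within 0.5 in each library.

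Among the other hypoxia-induced genes, *Bnip3* (GRCm38, chr7:138890836-138909519, minus strand) stood at 1.81, 1.54 and 1.80 CPM in cre 1, cre 2 and cre 3, and at 2.61, 2.91 and 2.45 CPM in control 1, control 2 and control 3. All cre libraries lay below all control libraries. The log2 difference was −0.63 ± 0.19 by the labels and −0.72 ± 0.26 in the 4 libraries (adjusted p 0.848 and 0.352, edgeR's quasi-likelihood test). With the counts of its copies added it was −0.38 by the labels, with 4.38, 4.33 and 4.63 CPM in cre and 5.81, 6.09 and 5.46 CPM in control libraries, which still did not overlap.

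*Kdm3a* and *Mxi1*, a repressor that opposes MYC, were higher in all cre libraries by small amounts. *Kdm3a* stood at 104, 105 and 110 CPM in cre 1, cre 2 and cre 3, and at 92.6, 101 and 97.8 CPM in control 1, control 2 and control 3, a log2 difference of 0.13 ± 0.06. *Mxi1* stood at 30.8, 31.6 and 32.1 CPM in cre 1, cre 2 and cre 3, and at 26.6, 29.0 and 28.4 CPM in control 1, control 2 and control 3, a log2 difference of 0.17 ± 0.07. Neither passed the test by the labels or in the 4 libraries.

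*P4ha2* was at 0.819, 0.717 and 0.249 CPM in cre 1, cre 2 and cre 3, and at 0.220, 0.238 and 0.532 CPM in control 1, control 2 and control 3. Cre 1, cre 2 and control 3 held the 3 highest values. These rest on 29, 21 and 8 counts in cre libraries and 7, 8 and 18 counts in control libraries, and the log2 difference of 1.73 ± 0.45 in the 4 libraries did not pass edgeR's quasi-likelihood test (adjusted p 0.192). *P4ha1*, its abundant relative, averaged 49.1 ± 4.07 CPM in cre and 43.1 ± 10.4 CPM in control libraries (SD, n = 3 each).

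*Vegfa* was highest in cre 1, at 40.7 CPM, and lay between 27.9 and 29.9 CPM in the other 5 libraries. Its log2 difference of 0.12 by the labels was −0.08 without cre 1. *Ndrg1* stood at 1.44, 0.512 and 0.590 CPM in cre 1, cre 2 and cre 3, and at 1.19, 1.25 and 0.413 CPM in control 1, control 2 and control 3, so that each label held both high and low values. *Ankrd37* ranged from 0.137 to 0.509 CPM in cre and from 0.283 to 0.473 CPM in control libraries. *Higd1a* averaged 21.7 ± 1.48 CPM in cre and 21.5 ± 2.83 CPM in control libraries, and *Bhlhe40*, a transcription factor of the circadian clock, 58.1 ± 6.45 and 59.7 ± 9.96 CPM (SD, n = 3 each).

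Genes of the same pathways outside the 36 were tested in the same fits. Of 44 other glycolysis genes 35 were tested by the labels, with 0 called by edgeR's quasi-likelihood test or by DESeq2; at an unadjusted p under 0.05, 3 were higher and 1 lower in cre. Of 48 other hypoxia genes 43 were tested, of which edgeR called 0 and DESeq2 1, and the unadjusted counts were 3 higher and 1 lower. Of 22 genes of the tricarboxylic acid cycle and pyruvate entry, which burn pyruvate in mitochondria, all were tested, with 0 called by either tool and 0 at an unadjusted p under 0.05. The median log2 differences of these lists were −0.02, 0.04 and 0.03. Of all genes tested by the labels, 2.66% were higher and 2.34% lower in cre at an unadjusted p under 0.05 with edgeR's quasi-likelihood test. DESeq2 called 0.215% of all genes higher and 0.145% lower. In the 4 libraries edgeR called 0 of 36, 1 of 43 and 0 of 22, with medians of 0.02, 0.01 and 0.04. At an unadjusted p under 0.05, 3, 2 and 1 of these genes were higher in cre, against 6.12% of all genes tested, and 4, 3 and 1 were lower, against 5.12%.

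The 1 gene called by edgeR was *Adm*, the vasodilator peptide adrenomedullin, at 66.8, 55.4 and 41.7 CPM in cre 1, cre 2 and cre 3, and at 30.6, 28.6 and 30.1 CPM in control 1, control 2 and control 3. All cre libraries lay above all control libraries, and the log2 difference was 1.05 ± 0.11 in the 4 libraries (adjusted p 0.0206, edgeR's quasi-likelihood test) and 0.88 ± 0.16 by the labels (adjusted p 0.522 with the same test and 0.000271 with DESeq2). The most abundant genes of the other lists were *Pdha1*, a subunit of pyruvate dehydrogenase, at 325 to 355 CPM in cre and 313 to 360 CPM in control libraries, and *Eno1*, the main enolase, at 301 to 340 and 315 to 400 CPM. *Cs*, citrate synthase, was at 879 to 974 CPM in cre and 838 to 925 CPM in control libraries. The muscle forms *Eno3* and *Pgam2* were at 5.85 and 2.60 CPM in cre 1, the library with the high muscle genes, and at 1.33 to 2.59 and 1.04 to 1.64 CPM in the other 5, and the part of muscle RNA in these values was not tested.

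Promoter windows of RefSeq (GRCm38.p6, 250 bases before to 50 after each start) were found for 32 of the 36 genes by symbol. The letters ACGTG, searched on both strands and so also read as CACGT, occurred in the windows of 23 of them, or 71.9%, and in those of 21.8% of all 27025 genes with a window. Some genes have several windows: counted by window, the letters occurred in 57.4% of 47 member windows and 19.6% of all 32851. The members were chosen by role, many as genes that low oxygen induces, so these shares are not a test. Where the match is CACGTG, the letters are read on both strands and also make an E-box, which 5 of the members and 8.09% of all genes had. A match describes the letters and is not a measured binding site. The 60-base stretches below, 5′ to 3′ on the strand of each gene and upstream of its RefSeq start, are shown because these genes include those with the lowest unadjusted p, the library-specific *Egln3* and 2 classical targets, with the matches in capitals.
Egln3, chr12:54204065-54204124, minus strand: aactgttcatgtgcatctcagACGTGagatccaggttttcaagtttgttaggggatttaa
Hk2, chr6:82774474-82774533, minus strand: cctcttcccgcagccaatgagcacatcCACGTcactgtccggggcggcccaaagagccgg
Bnip3, chr7:138909581-138909640, minus strand: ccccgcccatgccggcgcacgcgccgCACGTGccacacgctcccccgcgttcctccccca
Slc2a1, chr4:119108682-119108741, plus strand: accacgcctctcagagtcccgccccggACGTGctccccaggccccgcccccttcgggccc
Ldha, chr7:46845743-46845802, plus strand: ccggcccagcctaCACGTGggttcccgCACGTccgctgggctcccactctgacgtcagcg
Pgk1, chrX:106186942-106187001, plus strand: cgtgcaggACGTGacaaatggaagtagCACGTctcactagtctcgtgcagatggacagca

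The matches nearest to the RefSeq start lay 34 bases before it in *Ldha*, 36 in *Slc2a1*, 52 in *Hk2*, 107 in *Bnip3*, 131 in *Pgk1* and 229 in *Egln3*. In GENCODE the gene *Slc2a1* begins at base 119108711 and *Ldha* at base 46841475. The stretch of *Slc2a1* therefore lies partly, and that of *Ldha* wholly, inside the gene as annotated there. *Ldha* had 3 separate matches upstream of its start, *Hk2* and *Pgk1* 2 each, and the others 1. Among these 6 genes the labels overlapped in *Pgk1*, *Slc2a1* and *Ldha*, *Hk2* and *Bnip3* were lower in all cre libraries, and *Egln3* was high in control 3 alone. The 9 members with a window and no match to ACGTG were *Gpi1*, *Pfkl*, *Pfkp*, *Tpi1*, *Ldhb*, *Pfkfb4*, *Pdk1*, *Arnt* and *Kdm3a*. Other forms of the HIF motif and bases outside the windows were not searched, so these genes may still hold a HIF motif.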

How the data were processed

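The authors made stranded mRNA libraries, aligned the reads to GRCm38.p5 with Subread and deposited raw read counts per Ensembl gene, counted with Rsubread; strand and multi-mapping settings and versions are not given in the sources used here. The 49671 genes were named from a gene table, which had no symbol for 345 of them. Columns and genotypes were mapped by name alone. Counts were normalised by TMM, filtered by filterByExpr and tested by the quasi-likelihood method of edgeR 4.0.16 (R 4.3.3), with Benjamini-Hochberg adjustment over all genes tested and a threshold of 0.05, and the fit was tested on simulated data. There it called 82% of 100 genes changed 2-fold in either comparison. Unchanged genes called were 15 by the labels and 21 in the 4 libraries. Genes of low level were left out of the changed set, and every simulated library followed its label. The share therefore does not carry over to members with few counts or to the real fit by the labels. In that real fit the smallest adjusted p of any gene was 0.203 (quasi-likelihood test). *Tet3* had a log2 difference of −0.38 there, with adjusted p 0.9998 in the same test. CPM values use TMM-scaled library sizes. Exon lengths and coordinates come from GENCODE M21 (GRCm38), a later release than the authors' annotation. Copies were found with blastn 2.17.0 among annotated transcripts. No 2 libraries held identical counts. Alternatives included DESeq2 1.42.0. The members and gene lists were chosen with earlier results of these data known. All members are named, and for each other list the text names at most 4 called genes or, where none was called, the 2 most abundant, of which 1 is not reported here; muscle genes and the neighbours of *Egln3* were named after their values were seen.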

Additional observations from a re-analysis of the deposited data

How the results depend on the processing

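By the labels, the count of members called was 0 in each alternative, while over all genes DESeq2 called 67, no filter on low counts 3, and the 4 libraries 78. In the 4 libraries DESeq2 called 435 genes and 1 member, no filter 1325 genes and 5 members, and the replicate number as a block 169 genes and 0 members. Same-numbered libraries did not deviate together, with correlations of −0.08, 0.04 and −0.02. These deviations are from the mean of each label, and cre 3 and control 3 had the *Tet3* level of the other label. The check therefore cannot tell whether the numbers pair the libraries. By the labels the block called 0 genes. Leaving out each library in turn gave 0 to 18 genes by the labels (18 without control 3) and 59 to 297 in the 4 libraries (297 without cre 2 and 246 without control 2), and 0 members. The cause of these differences was not tested.

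Without control 3 and cre 3 the sign turned for *Pfkp* (0.39), *Gapdh* (0.10), *Arnt* (0.018), *Egln3* (0.27) and *Higd1a* (−0.097). With copies added in the 4 libraries it turned for *Gapdh* (−0.14) and *Higd1a* (0.0016). Leaving out single libraries also turned signs, by the labels over the log2 ranges −0.0077 to 0.049 for *Aldoa*, −0.35 to 0.32 for *Ankrd37*, −0.045 to 0.036 for *Arnt*, −0.17 to 0.061 for *Bhlhe40*, −1.92 to 0.44 for *Egln3*, −0.099 to 0.11 for *Gapdh*, −0.095 to 0.092 for *Higd1a*, −0.36 to 0.086 for *Ldha*, −0.78 to 0.10 for *Ndrg1*, −0.030 to 0.24 for *Pdk1*, −0.39 to 0.080 for *Pfkfb4*, −0.17 to 0.015 for *Pfkl*, −0.36 to 0.26 for *Pfkp*, −0.034 to 0.050 for *Pgk1* and −0.080 to 0.22 for *Vegfa*. In the 4 libraries the ranges were −1.34 to 0.53 for *Ankrd37*, −0.025 to 0.055 for *Arnt*, −0.049 to 0.11 for *Epas1*, −0.048 to 0.23 for *Gapdh*, −1.25 to 0.24 for *Ndrg1*, −0.097 to 0.39 for *P4ha1*, −0.16 to 0.34 for *Pdk1*, −0.010 to 0.16 for *Pfkm*, −0.025 to 0.17 for *Pgam1*, −0.055 to 0.072 for *Pgk1* and −0.077 to 0.47 for *Vegfa*. *Car9*, *Ankrd37*, *P4ha2*, *Slc16a3* and *Ndrg1* are limited by their few counts.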

Other observations

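Beyond the rule for named genes, DESeq2 called 4 further genes of the pathway lists in the 4 libraries that edgeR's quasi-likelihood test did not call, and they are named after their values were seen. Over all genes DESeq2 called 1.53% higher and 1.39% lower in cre in these libraries. *Aldoc*, the brain-type aldolase, stood at 334, 391.5 and 333 CPM in cre 1, cre 2 and cre 3, and at 221, 240 and 471 CPM in control 1, control 2 and control 3, with adjusted p of 2.5e-07 in DESeq2 and 0.0599 in edgeR. Control 3 was the highest library, so the labels overlapped. *Nrn1*, a neuronal growth protein, stood at 93.2, 60.6 and 33.6 CPM in cre 1, cre 2 and cre 3, and at 14.3, 28.3 and 41.1 CPM in control 1, control 2 and control 3 (adjusted p 0.0365 in DESeq2 and 0.087 in edgeR).

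*Pcx*, the pyruvate carboxylase, had 67.0, 67.7 and 76.1 CPM in cre 1, cre 2 and cre 3, and 89.96, 82.2 and 68.5 CPM in control 1, control 2 and control 3 (adjusted p 0.0367 in DESeq2 and 0.133 in edgeR). *Eno1b*, a retrocopy of the enolase gene *Eno1*, had 255, 260 and 296 CPM in cre 1, cre 2 and cre 3, and 370, 305 and 282 CPM in control 1, control 2 and control 3 (adjusted p 0.0226 in DESeq2 and 0.2 in edgeR). In these 2 genes control 3 lay among the cre libraries.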
